A study of Mus musculus with 4 samples.

Results

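Classical monocytes were examined in a single-cell RNA-seq dataset of all viable cells from dissociated mouse lung tumors. They were selected by measured values, that is, by raw unique molecular identifiers (UMIs, counts of single captured RNA molecules) in each cell. A cell had to hold at least 200 detected genes and at most 13.4% mitochondrial UMIs, at least 4 UMIs summed over Ly6c2, F13a1 and Ccr2 with at least 1 from F13a1 or Ccr2, and at least 1 Csf1r UMI. It could hold at most 3 UMIs summed over C1qa, C1qb and C1qc, at most 2 over Treml4, Ace, Cd300e and Adgre4, at most 2 of Siglech, and none of Flt3, Cd3d, Cd3e or Cd3g. The rule returned 196 of 20351 deposited cells, or 0.985% of the 19892 cells within the gene and mitochondrial limits (95% interval 0.853 to 1.13). These 16 genes define the cells, so their levels describe the choice and are not findings.

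The tumors came from 4 female mice, 2 Restored and 2 Non-Restored, whose lungs had received Lenti-Cre at 6 to 12 weeks of age and were collected 16 weeks later. All mice carried KrasLSL-G12D (a Cre-activated oncogene), Lkb1XTR/XTR and Rosa26LSL-tdTomato (a Cre-activated red fluorescent reporter), and the Restored mice also carried Rosa26 FLPo-ERT2, a tamoxifen-activated recombinase. Cre inverts a gene trap in the XTR allele, which stops the kinase gene Lkb1 (Stk11) and turns on GFP, and FLPo-ERT2 takes the trap out. Mice of both cohorts were given tamoxifen, in 4 mg doses over the last 2 weeks, so the Non-Restored mice differ by the missing recombinase and not by the drug. Cre was delivered into the airways, so the trap and the oncogene act only in cells that took up Cre, whereas every cell of a Restored mouse carries FLPo-ERT2.

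The deposited counts of the 4 mice form 1 matrix, and no file used here ties a cell to a mouse. Restored and Non-Restored monocytes were therefore not compared, and the matrix counts as 1 sample. No test was run and no p-value is given. Intervals are exact 95% intervals and cover counting error only, not the spread between mice. Cell classes that differ in a gene may also draw unequally on the 4 mice, which cannot be told apart here. Cell barcodes were not used here, so barcodes shared between libraries were not counted.

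Classical monocytes are made in the bone marrow, enter blood through the chemokine receptor CCR2, and are recruited into inflamed tissue and tumors, where they can turn into macrophages or into cells with features of dendritic cells. In mice they carry the surface protein Ly6C, encoded in part by Ly6c2. Non-classical monocytes arise from them under the transcription factor NR4A1, carry little Ly6C and patrol the wall of blood vessels. MHC class II molecules, which display peptides to CD4 T cells, are made at high level by macrophages and dendritic cells and are gained by some monocytes after they enter tissue.

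Promoter sequences are shown for members of the gene groups on which the results below turn: H2-Aa and H2-Eb1, which encode chains of MHC class II, Ifitm3, an interferon-induced antiviral membrane protein, and Ly6c2 itself. Each is a 300-base RefSeq window of build GRCm38.p6 around the annotated start, written 5′ to 3′ on the strand of the gene. H2-Aa is chr17:34287774-34288073 on the minus strand, H2-Eb1 chr17:34305617-34305916 on the plus strand, Ifitm3 chr7:141010695-141010994 on the minus strand and Ly6c2 chr15:75111922-75112221 on the minus strand. Capitals mark CTGATTGG, the Y box core of MHC class II promoters, in H2-Aa and H2-Eb1, an interferon response-type motif (GAAA, any NN, then GAAA) in Ifitm3, and an ETS-type GAGGAAGT, the kind of site PU.1 and its relatives bind, in Ly6c2, on either strand.
H2-Aa: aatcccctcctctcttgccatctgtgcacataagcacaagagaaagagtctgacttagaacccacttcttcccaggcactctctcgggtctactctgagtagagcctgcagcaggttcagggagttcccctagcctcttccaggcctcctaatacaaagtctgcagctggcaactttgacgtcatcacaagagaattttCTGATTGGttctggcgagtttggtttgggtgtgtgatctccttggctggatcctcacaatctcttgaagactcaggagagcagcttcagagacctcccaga
H2-Eb1: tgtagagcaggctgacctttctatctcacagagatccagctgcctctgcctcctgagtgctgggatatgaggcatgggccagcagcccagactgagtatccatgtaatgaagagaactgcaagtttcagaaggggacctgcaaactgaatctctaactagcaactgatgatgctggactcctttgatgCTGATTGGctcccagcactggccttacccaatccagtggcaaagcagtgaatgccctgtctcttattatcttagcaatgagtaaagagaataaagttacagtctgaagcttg
Ifitm3: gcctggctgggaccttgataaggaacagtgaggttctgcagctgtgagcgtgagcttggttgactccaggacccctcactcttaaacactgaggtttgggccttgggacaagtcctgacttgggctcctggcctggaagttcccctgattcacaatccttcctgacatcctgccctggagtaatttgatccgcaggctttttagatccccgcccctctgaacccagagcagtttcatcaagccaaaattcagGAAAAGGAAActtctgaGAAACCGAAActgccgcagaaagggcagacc
Ly6c2: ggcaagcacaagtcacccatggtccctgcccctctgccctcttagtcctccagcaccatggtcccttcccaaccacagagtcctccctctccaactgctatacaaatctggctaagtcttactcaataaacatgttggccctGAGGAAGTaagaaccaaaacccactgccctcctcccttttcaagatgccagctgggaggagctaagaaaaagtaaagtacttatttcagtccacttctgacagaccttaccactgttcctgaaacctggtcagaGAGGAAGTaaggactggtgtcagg

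The Y box letters stood in 4 of 9 promoters of the MHC class II list (44.4%) and in 4.10% of all 32851 promoters in the RefSeq table. This motif was added after the data were seen. H2-Eb1 was the only one of the 4 windows with letters of a second motif, an NR4A-type AAAGGTCA lying apart from its Y box. These matches describe letters in the windows and are not binding sites.

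The 196 classical monocytes held 709532 UMIs in all, with 1457 to 13468 UMIs per cell, a median of 3337.5 UMIs and a median of 1271.5 genes. They were set beside 3 classes gated in the same way. Non-classical monocytes (171 cells, median 2391 UMIs) had at least 3 UMIs over Treml4, Ace, Cd300e and Adgre4 and at most 3 over Ly6c2, F13a1 and Ccr2. C1q-high macrophages (1880 cells, median 4378 UMIs) had at least 10 UMIs over the C1q genes. Type 2 conventional dendritic cells (73 cells, median 4298 UMIs) had Flt3 and at least 2 UMIs over Cd209a, Clec10a and Mgl2. T cells (3591 cells, median 1722 UMIs) and neutrophils (1457 cells, median 900 UMIs) served as background for genes they should lack. UMIs of each class were summed and divided by the class total, on the CPM scale (1000000 is the total of a class).

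Within the classical monocytes the selecting genes varied from cell to cell. Ly6c2 gave 522 UMIs, from 0 to 15 per cell with a median of 2, and 47 of the 196 cells had none. F13a1, the A chain of coagulation factor XIII, gave 476 UMIs in 158 cells. Ccr2 gave 815 UMIs in 191 cells and Csf1r, the receptor for the growth factor M-CSF, 400 UMIs in all 196. At the lower limit of the rule, the 22 cells with a sum of 4 had 2597 CPM of Plac8, 1166 CPM of Fn1 and 3069 CPM of H2-Ab1, and the 37 cells just outside with a sum of 3 had 1431, 306 and 5327 CPM. A further 131 cells met every condition but had no Csf1r UMI, against 89 members with exactly 1, and their Plac8 level was 1884 CPM against 2352 CPM. Of cells that met every other condition and lay just past 1 limit, 22 had 1 Flt3 UMI, 5 had 3 UMIs of the non-classical genes, 3 had 4 or 5 C1q UMIs and 3 had 1 CD3 UMI. Cells further past these limits were not counted here.

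Markers that the rule did not use were read as a description of the cells. They were chosen with earlier results of these data known, so they are not an independent check of the label. Plac8, a small cysteine-rich protein of myeloid cells encoded at chr5:100553725-100572245 (mm10, minus strand), gave 1682 UMIs in 186 of the 196 cells, with a median of 2249 CPM per cell and a highest value of 12237. With every cell randomly reduced to 1000 UMIs (thinned), 82.1% of classical monocytes still had a Plac8 UMI (76.1 to 87.2), compared with 61.9% of non-classical monocytes, 30.1% of type 2 dendritic cells, 0.533% of C1q-high macrophages and 1.96% of T cells. Unthinned, the share was 94.9%. Cells with fewer than 1000 UMIs were left out of thinned shares, which kept all 196 classical monocytes, 168 of 171 non-classical monocytes, 1877 of 1880 C1q-high macrophages, all 73 dendritic cells, 3375 of 3591 T cells and 596 of 1457 neutrophils. Fn1, fibronectin (chr1:71585520-71653200, minus strand), was present in 58.7% of thinned classical monocytes (51.4 to 65.6) and in 7.14% of non-classical ones. Lyz2, lysozyme, gave 17771 CPM. Vcan, a matrix proteoglycan used as a classical marker, was low at 16 UMIs in 11 cells. Chil3, a chitinase-like protein also used as a marker, was found in 84 cells and was not particular to them, as given below.

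**Figure D1:**
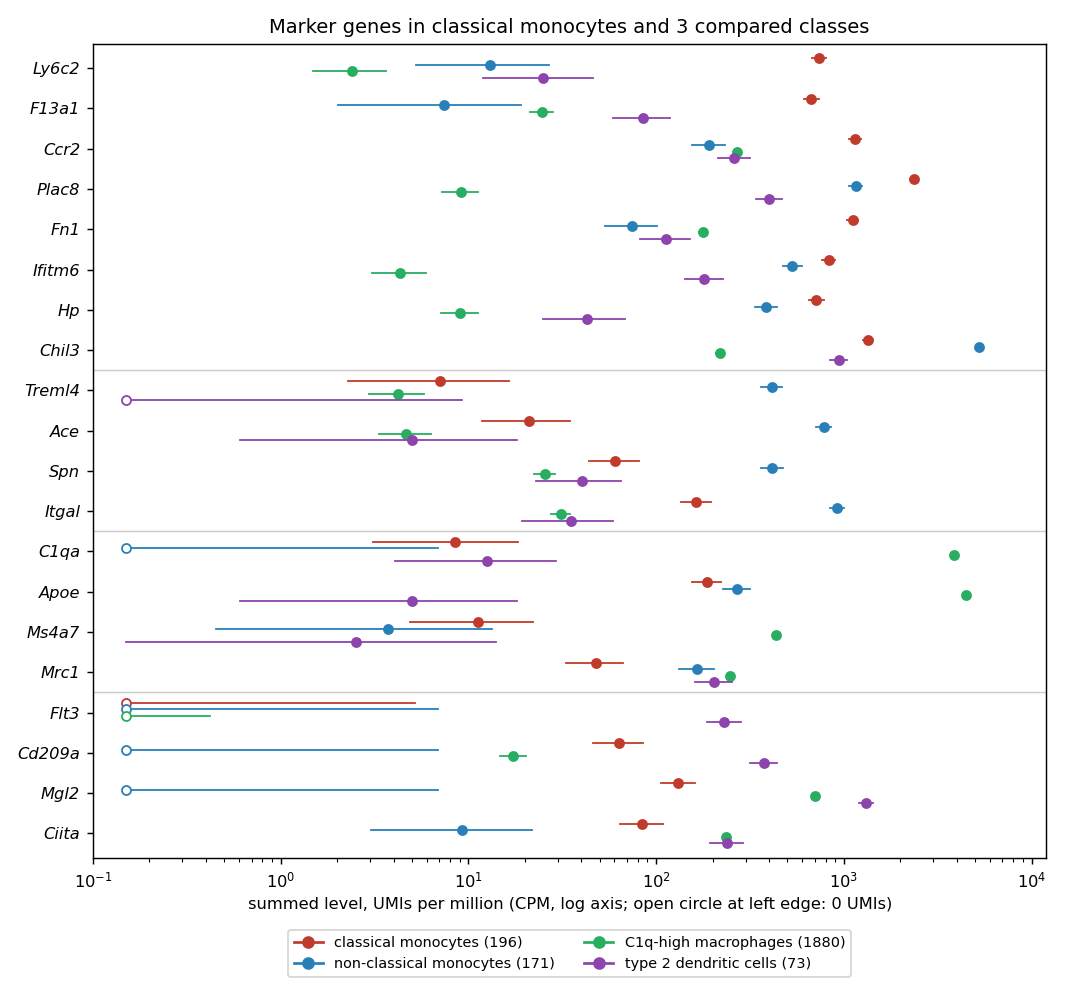
Summed level of 20 marker genes in classical monocytes, non-classical monocytes, C1q-high macrophages and type 2 dendritic cells, in CPM on a log axis, with exact 95% Poisson intervals (bars) that cover counting error only. Plac8, Fn1, Ifitm6 and Hp are highest in classical monocytes (red), the summed level of Chil3 is highest in non-classical monocytes (blue), and genes used in the gates, such as Ly6c2, Treml4, C1qa and Flt3, differ by construction.

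Markers of other lineages were low in the classical monocytes, with 1 exception. The list of 7 endothelial genes summed to 43.7 CPM, 9 alveolar macrophage genes to 52.1, 11 lung epithelial genes to 73.3, 6 stromal genes, 5 of them at 0, to 14.1 and 8 B cell genes to 141 CPM. The 12 T and NK cell genes summed to 118 CPM, with 3 genes at 0. Gzma, a granzyme of that list, and Ccl5, a chemokine of lymphocytes, gave 67 UMIs together, 60 of which lay in 3 cells. The exception was the neutrophil list, at 9316 CPM, or 249 CPM without a minority of cells described next. GFP had 0 UMIs, which allows a share of up to 1.53% of cells with a UMI. TdTomato had 94 UMIs in 54 cells, with 30 of the 94 in 2 cells. Its thinned share was 11.7% (7.59 to 17.1), and that of T cells 14.6% (13.5 to 15.9). Stk11 gave 23 UMIs in 22 cells.

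A minority carried neutrophil-type transcripts. S100a8 and S100a9, which encode the subunits of calprotectin, an abundant protein of neutrophils and of some monocytes, summed to 5940 UMIs, and 25 of the 196 cells (12.8%) held 5911 of them, or 99.5%. These are called S100-high cells below and had from 10 to 1673 UMIs with a median of 160, whereas the other 171 had at most 5, and 152 of them had none. In the 25 cells Retnlg, a resistin-like protein of neutrophils, stood at 2312 CPM against 1.67 CPM in the other members, Lcn2, an iron-sequestering granule protein, at 1577 against 6.69, Mmp9, a matrix-degrading protease, at 600 against 1.67, and Cxcr2, the neutrophil chemokine receptor, at 556 against 8.36 CPM. A sum of at least 2 UMIs over Csf3r, Cxcr2 and Retnlg, which was part of the neutrophil gate, was met by 23 of the 25 and by 9 of the other 171 members. The full neutrophil gate also required the absence of Csf1r and CD3 UMIs. No member can pass it, since the rule demands a Csf1r UMI.

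Of classical marker genes that the rule did not use, Fn1 was at 1066 CPM in these 25 cells and 1126 in the rest, and Plac8 at 2088 and 2423 CPM. Ly6c2, a rule gene, was at 287 and 820 CPM, and 9 of the 25 lacked it. Their median depth was 4188 UMIs, against 3148 for the rest. Il1b, the inflammatory cytokine interleukin-1 beta, was at 4543 against 2069 CPM (2.20-fold, log2 interval 0.98 to 1.29), and H2-Ab1 at 959 against 2915 CPM. Ngp and Camp, granule proteins of immature neutrophils, came from a single cell, with 117 and 43 UMIs. Whether these 25 barcodes hold a second cell, free neutrophil RNA or monocytes that express the genes was not tested. Scrublet, a doublet caller, marked 2 of the 196 classical monocytes and 181 of 20299 cells in all (0.892%). It was run once on the pooled cells of all mice, and whether its calls fall among the 25 is not given here. No conclusion on the 25 is drawn from it. A sum of at least 10 was met by 31.6% of non-classical monocytes, 0.904% of C1q-high macrophages, 1.37% of type 2 dendritic cells, 1.78% of T cells and 91.4% of neutrophils. The limit of 10 was set after the data were seen, and several list counts below are also given without these cells.

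**Figure D2:**
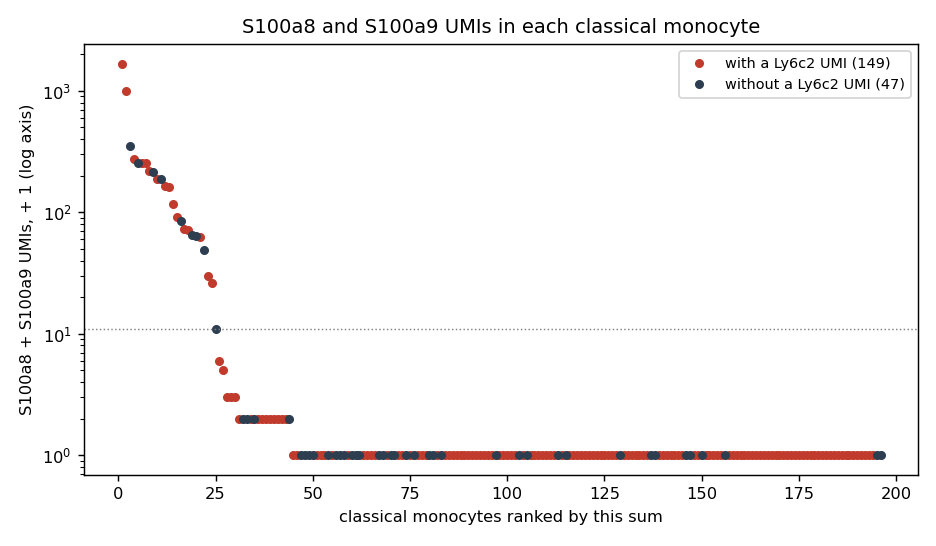
S100a8 plus S100a9 UMIs in each of the 196 classical monocytes, plus 1 on a log axis, ranked from highest to lowest and colored by whether the cell has a Ly6c2 UMI. The dotted line marks 10 UMIs. The 25 cells at or above it hold 99.5% of the UMIs, and most other cells sit at 0.

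Classical monocytes were compared first with non-classical monocytes, the other blood-derived monocyte class. Of 3314 genes outside the gates with at least 50 CPM in either class and 30 UMIs in both together, 102 were at least 2-fold higher in classical monocytes (3.08%) and 330 at least 2-fold lower (9.96%), on the scale of CPM plus 10, which understates the ratio of low genes. The median log2 ratio of all compared genes was -0.22. Quoted folds are ratios of CPM without that addition, and 2-fold calls use it.

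Matrix and chemokine genes were among the higher ones. Fn1 gave 1116 CPM against 74.4 CPM, a log2 ratio of 3.91 (3.45 to 4.40). Thbs1, which encodes the matrix protein thrombospondin-1, gave 378 against 91.2 CPM (4.14-fold), and Tgfbi, a matrix protein induced by TGF-beta, 544 against 233 CPM (2.34-fold). Of 14 compared genes of coagulation, fibrinolysis and matrix, 4 were higher and 2 lower. Among 9 chemokine ligands 4 were higher and 3 lower, and the higher ones included Ccl5 and Ccl17, which few cells supply. Ccl9, a ligand of CCR1, was at 569 against 160 CPM (3.56-fold), and Ccl2, the ligand of CCR2, at 134 against 42.8 CPM (3.13-fold, from 95 UMIs in 28 cells). Ccl6 and Ccl3 were lower, at 793 against 1742 and 118 against 275 CPM. Cxcr4, a chemokine receptor that retains cells in marrow, was 2.70-fold lower.

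The MHC class II list was higher as a whole in summed level. After thinning, a Cd74 UMI was seen in 61.7% of classical and 56.5% of non-classical monocytes, and an H2-Ab1 UMI in 42.9% and 24.4%. All 7 compared genes were at least 2-fold higher in classical than in non-classical monocytes, with a median log2 ratio of 1.67 against -0.22 over all genes. H2-Aa was at 2734 against 852 CPM (3.21-fold), Cd74, the invariant chain, at 7022 against 3009 CPM (2.33-fold), H2-DMb1, a subunit of the peptide-loading chaperone, at 355 against 76.3 CPM (4.65-fold), and Ciita, the master activator of these genes, at 84.6 against 9.30 CPM (9.09-fold). All 7 remained at least 2-fold higher without the S100-high cells of both classes, and 5 of 7 without the members that lacked Ly6c2. Mgl2, a lectin of dendritic cells and macrophages, had 93 UMIs in 18 classical monocytes and 0 in non-classical ones, hence at least 23.5-fold higher. Cd209a was at least 11.4-fold higher, from 45 UMIs in 12 cells. Ccl17, a chemokine for CCR4, was 27.6-fold higher (log2 4.79, 2.88 to 7.86), but its 73 UMIs lay in 5 cells with 41 in 1 of them.

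Interferon-stimulated genes were higher or within 2-fold. Of 24 compared, 10 were higher and none lower, and the list median was 0.81 against -0.22 over all genes. Ifi27l2a, an interferon-induced mitochondrial protein, gave 2872 against 754 CPM (3.81-fold), Ms4a4c, a membrane protein also on the classical marker list, 471 against 94.9 (4.96-fold), Ifi211, a DNA-binding protein of the p200 family, 151 against 18.6 (8.10-fold), and Irf7, the transcription factor that amplifies type I interferon, 148 against 68.9 CPM (2.15-fold). Ly6e and Slfn2 stayed within 2-fold. Without S100-high cells and members lacking Ly6c2, 13 of 25 were higher. Ly6c2 is a gene of the rule, and these genes were also higher in the upper Ly6c2 group described below. The count of 13 is therefore not a check apart from the selection. S100a10, a plasminogen receptor subunit, was 3.59-fold higher at 1081 against 301 CPM.

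Among promoters of genes higher in classical than non-classical monocytes, 9 of 97 held the interferon response-type letters (9.28%), against 5.57% for lower genes, 3.97% for all genes compared and 3.44% of all promoters. Ifitm3, shown above with 2 matches, was 1.86-fold higher and did not reach 2-fold. The C/EBP-type letters TTGCNNAA were found in 10.3% and 12.8% of promoters of higher and lower genes against 10.8% of all, the ETS-type letters in 4.12% and 5.29% against 3.20%, and the NR4A-type letters in 1.03% and 1.11% against 1.51%. Of the 102 higher and 330 lower genes, 75 and 255 had a promoter in the table.

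The genes lower in classical monocytes included most of the non-classical list. Outside the gate, 15 of 18 compared non-classical genes were lower and none was higher (median -2.18). Itgal, the alpha chain of LFA-1, which binds vessel walls, was at 163 against 921 CPM (5.63-fold), Spn, the sialomucin CD43, at 60.6 against 415 (6.85-fold), Pou2f2, a transcription factor, at 228 against 711 (3.11-fold), Fcgr4, an activating IgG receptor, at 16.9 against 236 (14.0-fold), Eno3, a muscle-type enolase, at 5.64 against 160 (28.4-fold), and Cd36, a fatty acid scavenger, at 32.4 against 352 CPM (10.9-fold). Nr4a1 itself was within 2-fold at 918 against 1487 CPM, as were Cx3cr1, the fractalkine receptor, at 228 against 311 CPM, and Klf2 at 541 against 910 CPM. The integrin partner Itgb2 was 2.32-fold lower and Itgb7 2.34-fold higher. Of the 21 compared genes of differentiated macrophages 11 were lower, among them the lysosomal protease Ctsd (206 against 1280 CPM) and the tetraspanin Cd9 (113 against 1018 CPM).

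The non-classical class also carried markers of other lineages. The endothelial list stood at 597 CPM in non-classical monocytes, all 7 of its genes 2-fold lower in classical monocytes, and the alveolar macrophage list at 752 CPM. Gpnmb, Plet1, Car4 and Ctsk were all at least 17.3-fold lower in classical monocytes and came from 14 to 22 non-classical cells each, with up to 38 UMIs in 1 cell for Gpnmb. Cxcl12 was 31.4-fold lower (7.05 against 221 CPM) and 49 of its 119 non-classical UMIs lay in 1 of 5 cells. Its log2 ratio on the scale of CPM plus 10 went from -3.76 to 0.77 when non-classical cells with a Cdh5, Cldn5 or Ramp2 UMI were left out, an alternative added after the data were seen. Epas1 went from -3.10 to -0.37 there. The non-classical list kept 15 of 18 genes lower in that setting. The part of these markers in the other lower genes was not tested.

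Of 17 compared classical marker genes outside the rule, 4 were at least 2-fold higher in classical than in non-classical monocytes, Plac8, Fn1, Thbs1 and Ms4a4c, where 3.08% of all genes were, and 2 were lower, Chil3 and Ly6a. The list median was 0.69 against -0.22 over all genes. Plac8 was at 2371 against 1158 CPM (2.05-fold). Hp, haptoglobin, was at 715 against 387 CPM, Ifitm6 at 830 against 532 and Lyz2 at 17771 against 9906 CPM, all within 2-fold. Hp was higher in neutrophils, at 1834 CPM, and stood at 1192 CPM in the S100-high members against 625 CPM in the rest. Chil3 was 3.92-fold lower in summed level, at 1345 against 5276 CPM, but was seen in 42.9% of classical and 33.9% of non-classical monocytes, or 30.1% (23.8 to 37.0) and 26.8% (20.3 to 34.2) after thinning. Non-classical monocytes also carried the higher level of alveolar macrophage genes (752 against 52.1 CPM), whose part in the Chil3 level was not tested. Without S100-high cells in both classes, 6 were higher and 2 lower. S100a8 and S100a9 were within 2-fold, at 4487 against 6258 and 3884 against 6632 CPM.

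The second comparison, with C1q-high macrophages, set monocytes against the macrophage class gated here. Of 2966 genes 270 were higher in classical monocytes (9.10%) and 248 lower (8.36%), with a median log2 ratio of 0.08. Of 16 classical marker genes outside the rule, 15 were higher, with a median of 3.0, and this count was 15 without the S100-high cells. Plac8 was at 2371 against 9.12 CPM, 260-fold (log2 8.02, 7.70 to 8.36), Ifitm6 at 830 against 4.33 (192-fold), Hp at 715 against 9.0 (79.4-fold) and Fn1 at 1116 against 178 CPM (6.29-fold). Cd14, the co-receptor for endotoxin, stayed within 2-fold at 1264 against 1514 CPM.

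Interferon-stimulated genes were mostly higher. Of 26 compared, 20 were higher in classical monocytes and 2 lower, and the list median was 1.84 against 0.08 over all genes. Ifitm3 was at 4751 against 173 CPM (27.4-fold, log2 4.78, 4.69 to 4.87), Irf7 at 148 against 7.29 (20.3-fold), Slfn1, a growth-regulating Schlafen protein, at 117 against 3.87 (30.2-fold) and Samhd1, a nucleotide-cleaving restriction factor, at 882 against 124 CPM (7.11-fold). Cxcl10, an interferon-induced chemokine, was lower, at 25.4 against 63.9 CPM. Leukocyte adhesion genes were higher in 6 of 14, with the integrin chains Itgal (5.28-fold), Itga4 (5.27-fold) and Itgam (3.67-fold), and Cd44, the hyaluronan receptor, at 612 against 188 CPM. Pattern recognition genes were higher in 8 of 16, among them the lectins Clec4e, which senses mycobacterial and fungal glycolipids, at 268 against 22.4 CPM and Clec4a1 at 211 against 43.0. Coagulation and matrix genes were higher in 8 of 14, among them Thbd, thrombomodulin (12.9-fold), F10, coagulation factor X (4.03-fold), and F5, coagulation factor V (49.5-fold, from 40 UMIs). Without S100-high cells this was 6 of 12. S100 and granule genes were higher in 9 of 14, and in 3 of 8 without S100-high cells.

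Macrophage genes were lower in the classical monocytes. Of 23 compared 12 were lower and none higher, with a median of -1.61. Apoe, a lipid carrier, was at 186 against 4504 CPM (24.2-fold), Ms4a7 at 11.3 against 435 (38.6-fold), Cd63, a lysosomal tetraspanin, at 31.0 against 563 (18.2-fold), and Mrc1, the mannose receptor, at 47.9 against 248 CPM (5.18-fold). Ctsb and Adgre1, which encodes F4/80, stayed within 2-fold. All 9 MHC class II genes compared were lower (median -1.88), with H2-Ab1 at 2607 against 9606 CPM (3.68-fold) and Cd74 at 7022 against 28057 CPM (4.00-fold). Of 16 chemokine ligands 12 were lower and 1, Ccl6, was higher (3.14-fold). Ccl8, Ccl12 and Cxcl13 had 0 UMIs in classical monocytes and were at least 37.9, 48.0 and 47.5-fold lower, and Cxcl2, a neutrophil attractant, was at 949 against 5329 CPM (5.62-fold). H2-M2, a nonclassical MHC gene, and Retnla, a resistin-like product of alternatively activated macrophages, had 0 UMIs too, at least 136 and 94.1-fold lower. Few of the 1880 macrophages supplied Retnla, Ccl8 and Cxcl13. Their UMIs lay in 93, 89 and 110 cells, with up to 505, 157 and 189 in 1 cell. Ccl12 was found in 361 and H2-M2 in 1086 of the macrophages. Asgr2, a galactose-binding lectin subunit, had 1 UMI, a ratio of 487-fold (log2 -8.93, -14.23 to -6.45). The protease Mmp12 was 60.6-fold lower. The C1q-high class also carried more UMIs of lung epithelial genes (1015 against 73.3 CPM) and of alveolar macrophage genes (288 against 52.1 CPM). Their part in the lower genes was not tested.

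The third comparison, with type 2 conventional dendritic cells, called 274 of 3042 genes higher (9.01%) and 220 lower (7.23%), with a median of -0.01. Of 16 classical marker genes 14 were higher (median 2.56), Hp by 16.7-fold, Lyz2 by 8.89-fold (17771 against 2000 CPM) and Plac8 by 5.90-fold. Thbs1 had 268 UMIs against 0, at least 50.1-fold higher. Cebpb, a transcription factor of inflammatory myeloid cells, was at 2285 against 244 CPM (9.37-fold). Pattern recognition genes were higher in 11 of 16 and lower in none, with Tlr13, a sensor of bacterial RNA, 10.5-fold and Cd14 3.47-fold higher. Pla2g7, which breaks down platelet-activating factor, was at 254 against 2.51 CPM (101-fold, log2 6.66, 4.16 to 11.97, from 1 UMI in the dendritic cells). Interferon-stimulated genes were higher in 16 of 25 and lower in 1.

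The same comparison placed dendritic genes outside the gate lower, 7 of 9 with none higher (median -1.39), among them Epcam, an adhesion molecule that is also on the epithelial list, at 16.9 against 590 CPM (34.9-fold) and Irf4, a transcription factor of this lineage, at 21.1 against 70.3 (3.33-fold). The chemokine Ccl17 was at 103 against 1960 CPM (19.0-fold). The dendritic class also carried more UMIs of lung epithelial genes (879 against 73.3 CPM) and of alveolar macrophage genes (621 against 52.1 CPM), and their part in the Epcam level and in the other lower genes was not tested. MHC class II genes were lower in 8 of 9 (median -1.63), H2-Ab1 by 3.47-fold at 2607 against 9059 CPM, and H2-DMb1 was within 2-fold. Bhlhe40, a transcription factor of activated myeloid cells, was 4.02-fold lower and Id2, which the dendritic lineage needs, 2.57-fold lower. Batf3, a dendritic cell transcription factor, was at 49.3 and 52.8 CPM. Tnfsf9, the ligand 4-1BBL, was at 67.7 against 259 CPM, although it was at least 12.1-fold higher in classical than in non-classical monocytes.

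In some lists few genes were past 2-fold in any of the 3 comparisons. MHC class I genes were within 2-fold in all 14, 12 and 12 genes compared with non-classical monocytes, C1q-high macrophages and type 2 dendritic cells. In the list of glycolysis and hypoxia genes 0 of 16, 1 of 14 and 1 of 15 were higher and 2, 0 and 0 lower. Slc16a3, a lactate exporter, was lower than in non-classical monocytes and higher than in the other classes, and Slc2a3, a glucose transporter, was the other gene below non-classical monocytes. Immediate-early and dissociation stress genes had 1, 3 and 3 genes lower of 18, 19 and 20, where 9.96%, 8.36% and 7.23% of all genes were lower. Of that list, Nr4a1 was higher than in C1q-high macrophages (2.09-fold). Il1b was within 2-fold of every class, at 2458 CPM against 3966, 3023 and 2477 CPM.

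**Figure D3:**
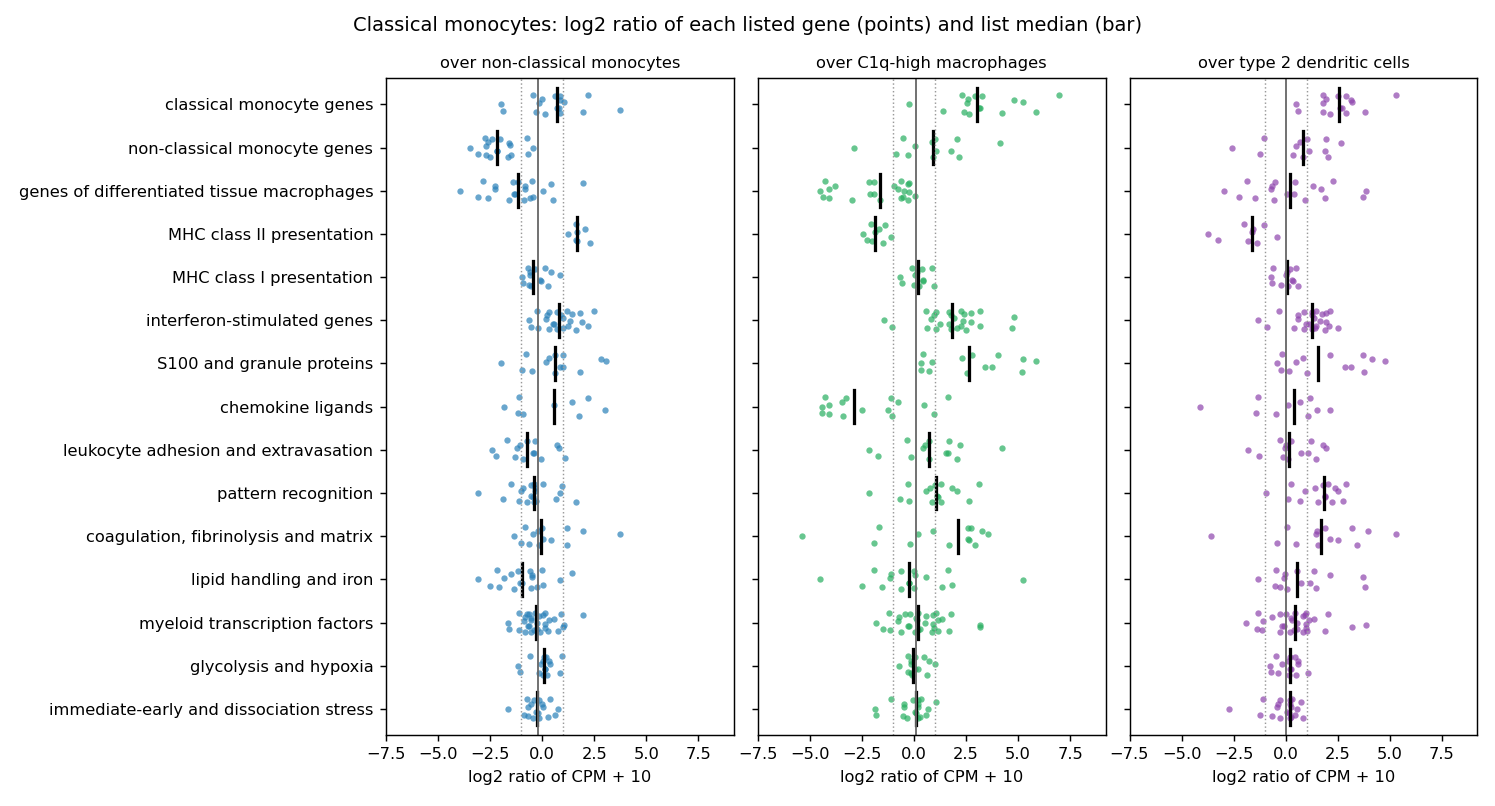
Log2 ratio of CPM plus 10 in classical monocytes over each compared class (panels), with 1 point per listed gene that passed the level limits and a black bar at the list median. The solid gray line is the median of all genes compared and dotted lines mark 2-fold. MHC class II genes lie to the right in the first panel (median 1.67) and to the left in the other panels (-1.88 and -1.63), and interferon-stimulated genes lie to the right in all (0.81, 1.84 and 1.28).

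MHC class II levels varied widely among the classical monocytes themselves. The summed level of H2-Aa, H2-Ab1, H2-Eb1 and Cd74 was 0 in 51 of the 196 cells, above 0 but below 1000 CPM in 33, from 1000 to below 10000 in 35, and 10000 CPM or more in 77 (39.3%, 32.4 to 46.5). Non-classical monocytes were spread as well, with 22.2% at 0 and 18.1% at 10000 CPM or more. The latter share was 97.4% in C1q-high macrophages, 95.9% in type 2 dendritic cells, 0.724% in T cells and 2.81% in neutrophils. The median was 2560 CPM per classical monocyte, 1270 per non-classical monocyte, 58884 per C1q-high macrophage and 51678 per type 2 dendritic cell. Thinned to 1000 UMIs per cell, an H2-Ab1 UMI was seen in 42.9% of classical monocytes (35.8 to 50.1), 24.4% of non-classical monocytes, 97.7% of C1q-high macrophages, 98.6% of type 2 dendritic cells, 2.96% of T cells and 10.6% of neutrophils. Unthinned, the share in classical monocytes was 52.6%.

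**Figure D4:**
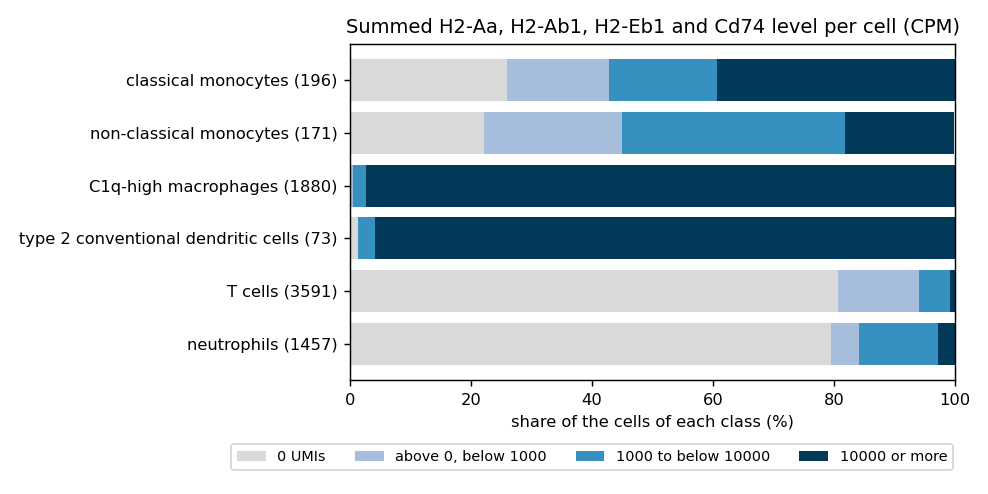
Share of the cells of each class (%) by their summed H2-Aa, H2-Ab1, H2-Eb1 and Cd74 level in CPM, with the number of cells in parentheses. Classical monocytes are spread over all 4 ranges, with 26.0% at 0 and 39.3% at 10000 or more. Non-classical monocytes also cover all 4 ranges, with 22.2% at 0 and 18.1% at 10000 or more. Macrophages and dendritic cells fall almost wholly in the highest range.

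The cells were then ranked by this level and split into groups of 66, 65 and 65. The lower group ranged from 0 to 397 CPM, the middle from 412 to 16263 and the upper from 17894 to 72562 CPM. Median depths were close, at 3521, 3223 and 3267 UMIs. Of 2152 genes compared, 78 were 2-fold higher in the upper than the lower group (3.62%) and 114 lower (5.30%). Dendritic genes were higher in 5 of 6 (median 2.94), and so were all 3 class II genes compared that did not serve for the ranking (median 3.38), against -0.04 over all genes. From the lower to the upper group H2-DMb1 was at 45.5, 187 and 804 CPM (17.7-fold) and Ciita at 8.27, 59.4 and 181 CPM (21.9-fold). Mgl2, Ccl17 and Cd209a had 92, 73 and 43 UMIs in the upper group and 0 in the lower. These last UMIs were concentrated, 162 of 211 over the 3 genes lying in 5 cells.

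Classical marker genes ran the other way. Of 16 compared, 9 were lower in the upper MHC class II group and none higher (median -1.26 against -0.04 over all genes). Fn1 was at 1529, 1267 and 583 CPM from the lower to the upper group (2.62-fold, log2 interval -1.68 to -1.11), Hp at 1058, 741 and 358 CPM, Thbs1 at 492, 503 and 157, and Ifitm6 at 1070, 969 and 474 CPM. Ccl2 was at 273, 105 and 24.1 CPM. Plac8, Lyz2 and Ifitm3 stayed within 2-fold, as did all 14 compared genes of differentiated macrophages. Il1b was at 2410, 2460 and 2503 CPM. Of 24 interferon-stimulated genes compared, 4 were lower in the upper group, Ifi211, Ifitm1, Xaf1 and Slfn1, and the list median was -0.38 against -0.04 over all genes. Slfn1 was at 165, 133 and 56.2 CPM from the lower to the upper group. Ifi27l2a, not among the 4, was at 2579, 3206 and 2865 CPM. All 8 neutrophil genes compared were lower in the upper group, and the groups held 13, 8 and 4 of the S100-high cells. Without those cells, the number of genes lower in the upper group was 68 in place of 114, and that of classical marker genes lower was 9 of 15 (median -1.13). The part of the S100-high cells in the values of single genes was not tested.

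The cells were also ranked by Ly6c2, a gene of the rule. The groups of 66, 65 and 65 cells ranged from 0 to 284, 286 to 846 and 847 to 5666 CPM of Ly6c2. This is a range of 1 gene, and at a median of 2 UMIs per cell counting error moves cells between the groups. In the lower group 47 of the 66 cells had no Ly6c2 UMI and so entered only through at least 4 UMIs over F13a1 and Ccr2, whereas no cell of the other groups lacked it. The part of this unequal entry in the values that follow was not tested. Of 2155 genes 30 were higher in the upper group (1.39%) and 87 lower (4.04%). MHC class II genes were lower in 6 of 7 (median -1.52 against -0.01 over all genes), H2-Ab1 at 4164, 1986 and 1267 CPM. Interferon-stimulated genes were higher in 5 of 22 and lower in 1 (median 0.73), Bst2, the antiviral protein tetherin, at 69.5, 140 and 238 CPM (3.42-fold) and Ifi44 at 80.5, 108 and 200 CPM (2.49-fold). Ccl2 was at 40.2, 203 and 182 CPM. Of 16 classical marker genes 1 was higher and none lower (list median 0.61). Plac8 stood at 1573, 2636 and 3111 CPM and Fn1 at 984, 1120 and 1281. Sparcl1, which ranked first among the higher genes, came from 30 UMIs in 1 cell. The groups held 15, 8 and 2 S100-high cells. Without those cells, MHC class II genes were again lower in 6 of 7 (median -1.68), interferon-stimulated genes were higher in 8 of 22 and lower in none, and 4 of 15 classical marker genes were higher. Without those and without members lacking Ly6c2, 19 genes were higher and 31 lower.

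**Figure D5:**
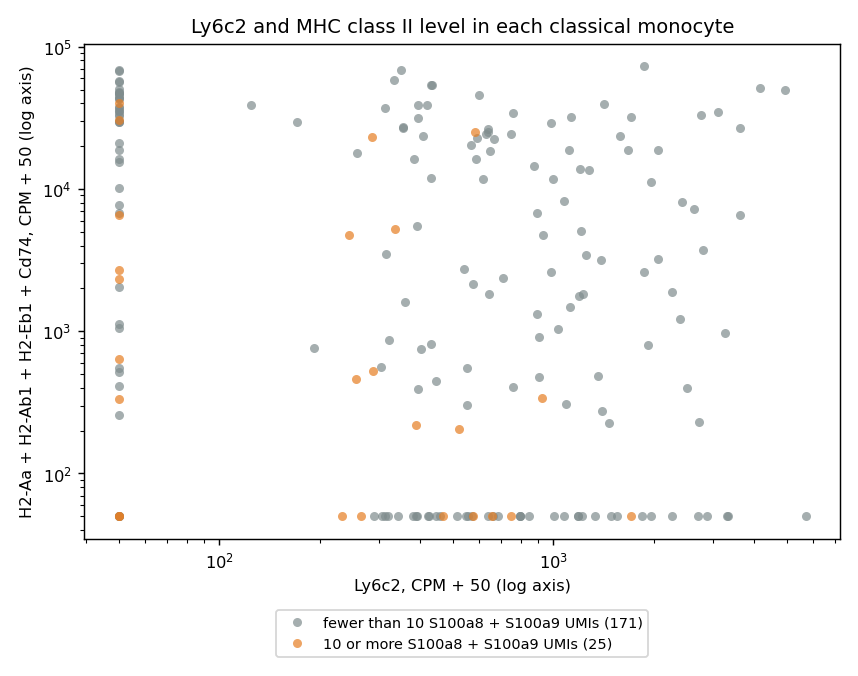
Ly6c2 level (horizontal) against summed MHC class II level (vertical) in each of the 196 classical monocytes, as CPM plus 50 on log axes, with the 25 S100-high cells in orange. Cells without Ly6c2 line the left edge, most of those outside the S100-high group lying in the upper part, while cells with Ly6c2 cover the whole vertical range.

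The members without Ly6c2 were examined apart, leaving out the S100-high cells: 38 cells without and 133 with a Ly6c2 UMI, at median depths of 2916.5 and 3254 UMIs. The MHC class II sum was 10000 CPM or more in 26 of the 38 (68.4%), in 47 of the 133 (35.3%) and in 4 of the 25 S100-high cells (16.0%). Its medians were 29761, 1773 and 292 CPM per cell. H2-Ab1 was at 6031 against 1992 CPM in cells without and with Ly6c2 (3.03-fold), Cd209a at 256 against 21.7 (11.8-fold), Pltp, a phospholipid carrier, at 227 against 15.2 CPM, Fcgr2b, the inhibitory IgG receptor, at 849 against 217 (3.92-fold) and Tnip3, an inhibitor of NF-kappa-B signaling, at 454 against 95.4 CPM (4.76-fold). Lower without Ly6c2 were Chil3 (198 against 1680 CPM), Bst2 (3 UMIs, 8.69-fold, log2 interval -5.42 to -1.52) and Plac8 (1310 against 2753). Fn1, at 893 against 1194 CPM, differed by under 2-fold. The rule admits a cell without Ly6c2 only with at least 4 UMIs over F13a1 and Ccr2, so the 2 sets of cells entered by unequal conditions. Cells that lack a Ly6c2 UMI by sampling and cells that do not express it cannot be told apart at this depth.

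Graph-based clustering of the 196 cells, with the rule genes and cell-cycle genes left out, gave 4 sub-groups of 98, 60, 29 and 9 cells, which describe the clustering and are given no cell type name. The largest had Gzma and Ccl5, which few cells supply, and Ldlrad3 as leading genes, with Ly6c2 at 1002 CPM and H2-Ab1 at 562 CPM. The next was led by Sparcl1 from 1 cell and by Clec10a, Tmem176b and MHC class II genes, with H2-Ab1 at 5306 CPM and Ly6c2 at 853 CPM. The sub-group of 29 held 24 of the 25 S100-high cells. The 9 cells of the last had 8748 CPM of H2-Ab1, 1146 of Mgl2 and 498 of Cd209a against 30.2 CPM of Ly6c2 and 256 of Plac8, a median depth of 6596 UMIs, and 7 of them lacked Ly6c2. A lower resolution returned 2 sub-groups. Proliferation was rare, since the 20 cell-cycle genes gave 177 UMIs, 117 of them in 2 cells.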

How the data were processed

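Viable cells of 4 tumor-bearing mice were profiled by droplet 3′ RNA-seq. The authors deposited 1 pooled matrix of raw UMI counts (31055 features, 58624795 UMIs), whose header names Cell Ranger 3.0.2, on mm10 with the reporter genes added. Barcodes and a map of cells to mice were not used here, and groups were not compared; 0 columns belonged to other samples. Members, gates and gene lists were chosen with earlier results of these data known. Counts were summed per class and scaled to CPM. Genes with at least 50 CPM in either class and 30 UMIs were called at 2-fold on log2(CPM + 10). Quoted ratios have exact conditional intervals, levels exact Poisson and shares Clopper-Pearson intervals (95%). A fold against 0 UMIs uses a floor of 3 UMIs over the class. Cells were clustered on 1500 variable genes and 10 principal components (resolution 0.5). Genes named are from 31 fixed lists, the 12 with the largest ratios per direction and comparison with at least 100 CPM, the 10 largest between groups of ranked cells, and the 10 leading genes per sub-group. Promoters were matched by symbol. Ratios were tested on simulated data. Clustering was also run on cells simulated from 1 profile, and the number of sub-groups found there is not given here. Python 3.11.15, numpy 2.4.6, scipy 1.17.1, pandas 2.3.3, scanpy 1.11.5 and matplotlib 3.10.9 were used. A few genes are not reported here.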

Additional observations from a re-analysis of the deposited data

How the results depend on the processing

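Of 178 alternative values of counts and shares, 142 held and 36 moved. The share of classical monocytes was 0.754% with a marker sum of at least 6, 1.16% with at least 500 genes per cell and 0.809% without members holding UMIs of other lineages. With alternatives added after the data were seen, it was 0.749% without members lacking Ly6c2 and 0.669% without those and the S100-high cells. With a pseudocount of 50 CPM, 48 genes were higher and 136 lower against non-classical monocytes, 132 and 136 against C1q-high macrophages, 129 and 91 against type 2 dendritic cells, 8 and 46 between the Ly6c2 groups and 38 and 47 between the MHC class II groups. With a minimum of 20 CPM and none of UMIs, 585 genes were lower than in non-classical monocytes and 428 than in C1q-high macrophages, 447 were higher and 443 lower against dendritic cells, 272 and 541 between the Ly6c2 groups and 615 and 400 between the MHC class II groups. Without members holding UMIs of other lineages, 50 genes were lower in the upper Ly6c2 group and 68 in the upper MHC class II group. With cells capped at the 98th percentile of genes, 51 were higher in the upper MHC class II group. Without S100-high cells 68 were lower there. Without members lacking Ly6c2, 51 were lower in the upper Ly6c2 group, and 46 were higher and 71 lower in the upper MHC class II group. Without both, these counts were 19 higher and 31 lower, and 39 and 38. The share of cells with an H2-Ab1 UMI was 52.6% unthinned, and a resolution of 0.3 gave 2 sub-groups. Of 1104 alternative values over 72 named genes, 1103 kept their direction and 1084 stayed past 2-fold. The exception in direction was Cxcl12 against non-classical monocytes, at 0.77 without non-classical cells holding a Cdh5, Cldn5 or Ramp2 UMI. The 72 genes were picked for the largest ratios in these same data, so these counts are not a separate check. Of the 20 values not past 2-fold, 9 came from leaving out S100-high cells. Leaving out those and members lacking Ly6c2 gave 8, the setting named for Cxcl12 gave 2, and a doubled gate of the compared class gave 1. The causes were not tested.

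The matrix is 1 sample, so the spread between mice is unknown and intervals cover counting error only. At a median of 3337.5 UMIs per cell, absence of a UMI does not show absence of expression. No paired analysis was possible because the columns used here carry no replicate number and no result comes from a test between groups.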
